A study of Arabidopsis thaliana with 9 samples.

Results

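The study asked how leaves of *Arabidopsis* accession Col-0 respond to eggs of the butterfly *Pieris brassicae* and drew on 3 biologically independent experiments, with 3 RNA libraries per treatment. The libraries numbered 2, called repeat 2 here, are described against the other repeats. They were chosen by the replicate number in the library names, which is taken here as the number of the experiment, although no source states that equal numbers of different treatments mark the same experiment. Repeat 2 holds 3 of the 9 libraries, namely control repeat 2, oviposition repeat 2 and egg extract (EE) repeat 2. The other 6 libraries are repeats 1 and 3 of the same treatments. All plants were 5 weeks old, were of the wild type and were kept under 10 h of light and 14 h of darkness. Control plants were left untreated. For oviposition, plants stood with butterflies for 24 h, 4 plants with an egg batch on each of 2 leaves were kept for 4 more days, and eggs were taken off before hatching. For EE, 2 drops of 2 µL were placed under each of 2 leaves of 4 plants for 5 days. Whole leaves that had carried eggs or EE were collected, so a lower level in these libraries can stand for fewer cells of a type or for less RNA per cell, which cannot be told apart. Neither the hour of harvest nor the dates of growth, extraction or sequencing are given for any repeat, and these cannot be told apart from the repeat number.

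Leaf transcripts vary with conditions that an experimenter may not record. Transcripts of the chlorophyll-binding antenna proteins depend on light and on the hour. The circadian clock runs through morning genes such as *CCA1* and *LHY*, whose products repress evening genes, and through the evening complex of ELF3, ELF4 and LUX, which represses morning genes in turn. Starch is built up by day and broken down at night, and a set of starvation genes is transcribed when sugar runs low in the dark. Flavonoids and anthocyanins are pigments that shield leaves from strong light, and their genes are also known to respond to sugar, cold and nutrient supply.

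Repeat 2 differed from the other repeats in 1978 of 17605 genes (limma, adjusted p under 0.05, treatment in the model), which is 11.2% of the genes tested. Of these, 756 genes (4.29%) were higher and 1222 genes (6.94%) were lower in repeat 2. All libraries had between 37348236 and 47057692 reads. The comparison rests on deposited log2 normalized counts (CPM, reads scaled to a common library size), so that a value of 0 stands for 1 CPM, which is 29.4 to 51.4 reads, and a difference of 1 for a doubling. These p-values measure how steadily the repeat 2 libraries differed over the 3 treatments. If each repeat is 1 experiment, a permutation over whole repeats, 1 against 2, could not give an exact two-sided p under 0.333. Against repeat 1 alone, 1178 genes passed (6.69%), with 2.35% higher and 4.35% lower, and against repeat 3 alone, 1122 genes passed (6.37%), with 2.23% higher and 4.14% lower. These comparisons share the repeat 2 libraries. Between repeats 3 and 1, limma called 0 genes, with 662 genes at an unadjusted p under 0.05 and 0.112 as the smallest adjusted p. Without control repeat 3 these were 2503 genes and 0.0519, again with 0 genes called. Repeat 2 accounted for 31.3% of the sum of squares over all genes, beside 40.6% for treatment, 4.91% for the difference between repeats 3 and 1 and 23.2% for the rest. The direction of a small difference depends on the scaling, because the median over all genes was 0.37 when reads were scaled by the total of each library, and the share of called genes that were higher was then 69.8% in place of 38.2%. Differences below are on the deposited scale, whose median over all genes was -0.00149.

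Gene lists differed in how many members passed. All 20 measured genes of the flavonoid and anthocyanin list, which includes regulators such as *PAP2*, were higher in repeat 2. Most measured genes of chlorophyll synthesis, of the antenna, of auxin response and of the response to sugar starvation were lower. The lists were chosen with earlier results of these data known, so these counts are a description and not a test. No gene of photorespiration, of the cytosolic ribosome or of the reference genes passed the test.

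**Figure D1:**
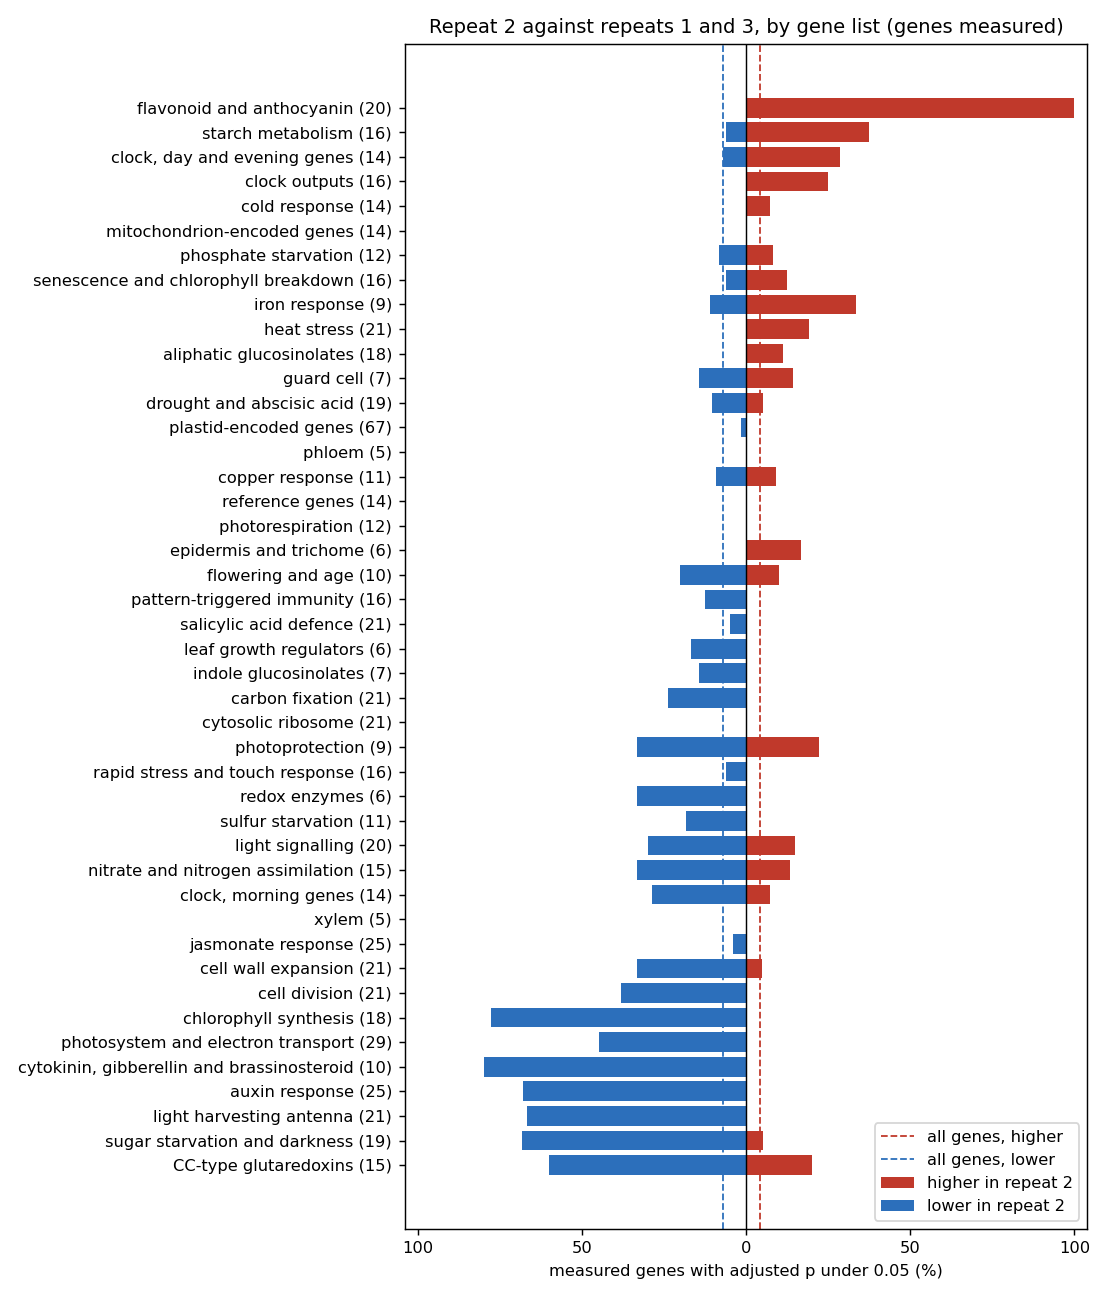
Percentage of the measured genes of each list that were lower (bars to the left) or higher (bars to the right) in repeat 2 at an adjusted p under 0.05, with the number of measured genes in parentheses and the percentage over all genes as dashed lines. Lists are ordered by their median difference, from flavonoid genes at the top (20 of 20 higher) to CC-type glutaredoxins at the bottom (9 of 15 lower).

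Flavonoid and anthocyanin genes showed the largest rises. The median difference of the 20 genes was 6.58 on the log2 scale, with a range from 1.95 for *UGT78D1*, a flavonol rhamnosyltransferase, to 9.83 for *PAP2*, a MYB activator of anthocyanin genes. Their share of all reads was 0.246% in control, 0.566% in oviposition and 0.104% in EE of repeat 2, and lay between 0.00444% and 0.00735% in the 6 other libraries. Thus the share was lowest with EE and highest with oviposition within repeat 2, with 1 library each. All 3 libraries stood above the other 6 in all 20 genes, beside 8.66% of all genes. *CHS*, which encodes chalcone synthase, the entry enzyme of the pathway, had log2 values of 9.32 in control, 10.22 in oviposition and 7.50 in EE of repeat 2. In repeat 1 the same treatments had 2.85, 2.64 and 2.13, and in repeat 3 they had 3.32, 3.07 and 1.35. The lowest repeat 2 library was therefore above the highest library of the other repeats, and *CHS* rose by 6.45 ± 0.32 (log2 difference ± SE, limma adjusted p = 3.73e-05), which is 87.6-fold.

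*DFR* encodes dihydroflavonol reductase, which takes dihydroflavonols towards anthocyanins. It had values of 7.70, 9.12 and 6.02 in control, oviposition and EE of repeat 2 and lay between -3.14 and 1.01 in the other libraries. Its difference was 8.37 ± 0.81 (limma adjusted p = 0.000621). The anthocyanidin synthase gene *LDOX* rose by 7.47, and the glycosyltransferase genes *UF3GT* and *UGT75C1* rose by 8.01 and 7.04. The acyltransferase gene *3AT1* and the glycosyltransferase gene *UGT78D3* were not in the list and were among the 5 largest rises of all genes, by 7.85 and 8.10. *UGT78D3* had 402, 177 and 105 reads in control, oviposition and EE of repeat 2, and 0 or 1 in each other library. *3AT1* had 0 reads in control repeat 3. The sizes of these rises therefore depend on the 0.5 reads added to each count. The chalcone isomerase gene *CHI* and the hydroxylase gene *F3H*, which act after *CHS*, rose by 2.35 and 4.18. The flavonol branch was also higher, as the flavonol synthase gene *FLS1* rose by 5.47 and its activators *MYB11*, *MYB12* and *MYB111* rose by 6.70, 5.48 and 7.70. *PAP2* itself counted 7575 reads over the 3 libraries of repeat 2 and 16 reads over the 6 others. *PAP1*, its close relative, rose by 4.08, and *TT8*, which encodes the bHLH partner of these MYB proteins, rose by 6.84. *CHS*, *FLS1*, *LDOX*, *PAP1*, *TT8* and the other list members in this paragraph beyond the largest 3 were picked after their values were seen.

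**Figure D2:**
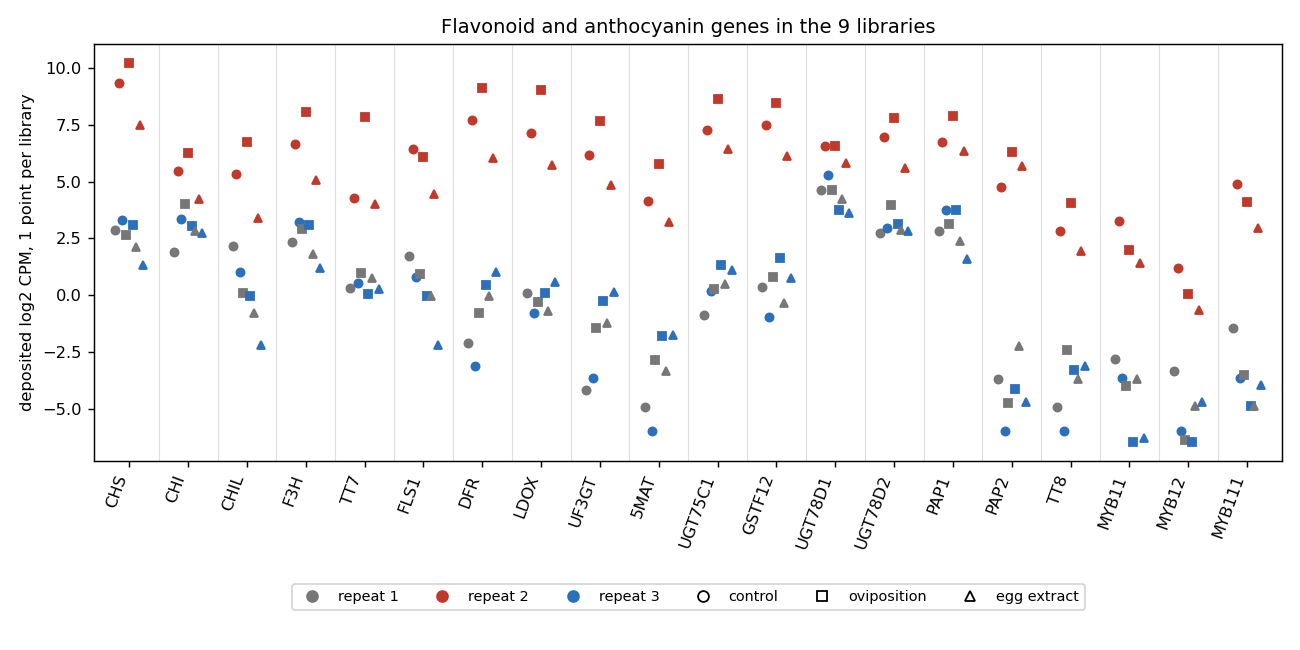
Deposited log2 CPM of the 20 flavonoid and anthocyanin genes, with 1 point per library, colour for the repeat and shape for the treatment. The repeat 2 points (red) lie above all points of repeats 1 and 3 for every gene, with oviposition above EE in repeat 2.

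Sequence upstream of the gene start is shown for *CHS* and *DFR* because they encode the entry enzyme and the reductase on the way to anthocyanins. The 250 bases before the start in the deposited annotation were searched on both strands for the G-box CACGTG, which bZIP and bHLH proteins bind, and for the MYB recognition element ACCTACC, added after the data were seen. Matches of these motifs can share at most 1 letter. The G-box was present in 8 of the 20 flavonoid genes. It was in 9.32% of 17523 promoters of all genes, 13.2% of those called higher and 11.6% of those called lower. Some lists that were lower held it too, with 5 of 13 photosystem and electron transport genes and 2 of 5 of carbon fixation. It was also in 4 of 14 lower antenna genes and 2 of 4 lower morning clock genes. Other lower lists had few or none, such as 1 of 13 in sugar starvation and 0 of 8 in cell division. The G-box therefore did not set the flavonoid genes apart from every list that was lower. The MYB element was present in 2 of 20 (10.0%), beside 1.25% of all promoters. The stretches below read 5′ to 3′ towards the gene from the TAIR10.1 reference of RefSeq, at chr5:4488568-4488687 on the plus strand and chr5:17165949-17166068 on the minus strand. Capitals mark ACCTACC in *CHS*, whose first base is at position -70 from the gene start, and CACGTG in *DFR*, at -128 and at -105.
CHS: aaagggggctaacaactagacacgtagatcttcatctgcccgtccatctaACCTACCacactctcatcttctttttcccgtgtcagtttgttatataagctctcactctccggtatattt
DFR: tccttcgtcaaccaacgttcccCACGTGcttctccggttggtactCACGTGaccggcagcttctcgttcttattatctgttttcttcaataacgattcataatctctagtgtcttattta
A match describes the letters only.

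The antenna of the photosystems was lower in repeat 2. Of 21 genes for light-harvesting chlorophyll-binding proteins, 14 fell and 0 rose, with a median difference of -2.69. Together they took 2.54%, 1.80% and 1.63% of reads in control, oviposition and EE of repeat 2. The shares were 6.58%, 13.3% and 8.79% in repeat 1 and 18.5%, 8.24% and 7.25% in repeat 3, so that the groups did not overlap. The 6 libraries of repeats 1 and 3 were far from uniform, and control repeat 3 and oviposition repeat 1 were the richest in antenna reads. Without both of these libraries, an alternative chosen after seeing the data, 16 antenna genes were lower and 2 were higher, and without control repeat 2 or oviposition repeat 2, 9 were lower. *LHCB2.3*, for a major antenna protein of photosystem II, had log2 values of 3.03, 2.59 and 2.45 in control, oviposition and EE of repeat 2. In repeat 1 the values were 9.91, 10.06 and 9.07, and in repeat 3 they were 11.43, 8.98 and 7.47. Every repeat 2 library was below every other, as in 9.81% of all genes, and *LHCB2.3* fell by 6.80 on the log2 scale (SE 0.52, limma adjusted p = 0.000204).

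Antenna genes did not fall evenly. *LHCB1.1* fell by 6.28, *LHCB1.4* by 6.23, *LHCB3* by 4.17 and the photosystem I antenna gene *LHCA4* by 3.25. *LHCB1.3*, which took the most reads of any gene in control repeat 3, had log2 values of 12.22, 11.68 and 11.47 in repeat 2 and between 12.21 and 16.09 elsewhere. The control of repeat 2 thus lay at the level of the control of repeat 1, and the difference of -2.67 missed the threshold (limma adjusted p = 0.0844). *LHCB1.5* had a difference of -1.91 (limma adjusted p = 0.275). *LHCB1.1*, *LHCB1.2* and *LHCB1.3* are near-identical copies, as are *LHCB2.1* and *LHCB2.2*, and reads may have been split between copies by the counting. *LHCB1.2* to *LHCB1.5* except *LHCB1.4*, and *LHCB3* and *LHCA4*, were named after their values were seen.

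Other lists of the photosynthetic apparatus had medians nearer to 0. Among 29 nuclear genes of photosystem subunits and electron transport, 13 fell and 0 rose, with a median of -1.83. *PSAN*, *PSAD2* and *PSAH2*, all subunits of photosystem I, fell by 2.96, 2.45 and 2.26. Without control repeat 1 this count was 23, whereas without control repeat 2, oviposition repeat 2 or EE repeat 2 it was 3, 4 or 6. In carbon fixation 5 of 21 genes fell, including the carbonic anhydrase genes *CA1* and *CA2* by 2.75 and 2.25, with a median of -0.51. Without control repeat 2, oviposition repeat 2 or EE repeat 2, 2, 3 and 3 of them were lower. None of the 12 photorespiration genes passed, and the smallest adjusted p was that of the aminotransferase gene *GGT1* at 0.0842 (limma), with a difference of -0.77. The photorespiration median of -0.23 turned to 0.19 with total reads as the scale.

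Chlorophyll synthesis had 14 of 18 genes lower and 0 higher, with a median of -1.74. *HEMA1*, for the first committed enzyme of the route, had log2 values of 4.91, 5.18 and 5.23 in control, oviposition and EE of repeat 2, against 7.55 to 9.44 in the others. These groups did not overlap, and the gene fell by 3.17 (SE 0.34, limma adjusted p = 0.000917). *PORB*, one of the light-dependent protochlorophyllide reductases, fell by 3.14. Its relative *PORA* had 5 reads over the 3 libraries of repeat 2 and 1598 over the 6 others. Genes further along the route were lower as well, such as the magnesium chelatase subunit gene *GUN5* with -2.69 and its regulator *GUN4* with -2.72, both named after their values were seen. The list took 0.290%, 0.268% and 0.253% of reads in repeat 2 and between 0.558% and 1.31% elsewhere. Its count of lower genes was 8 without control repeat 2 and 9 without oviposition repeat 2.

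**Figure D3:**
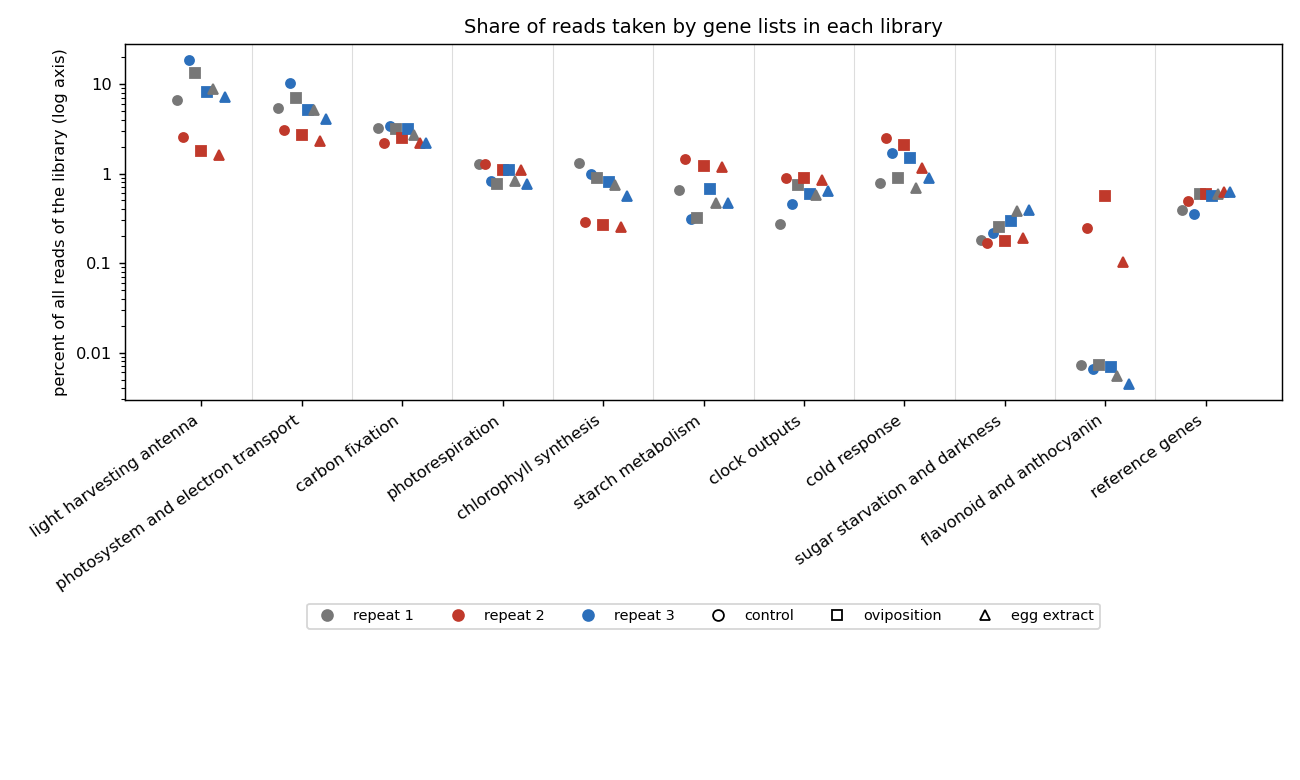
Percentage of all reads of each library taken by the genes of a list, on a log axis, with colour for the repeat and shape for the treatment. Repeat 2 (red) lies below both other repeats in the antenna and in chlorophyll synthesis and above them in starch and flavonoid genes, whereas reference genes overlap at 0.354% to 0.626% over all libraries.

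Light-stress and light-signalling genes moved in both directions. *ELIP1*, an early light-induced protein made under light stress, had log2 values of 4.37, 5.57 and 4.24 in repeat 2 and between -2.05 and 0.14 in the others. No library overlapped, and the difference was 5.34 ± 0.40 (limma adjusted p = 0.000204). *SEP2*, a stress-enhanced relative of the antenna proteins, rose by 1.43, whereas the violaxanthin de-epoxidase gene *VDE1*, *OHP* and *OHP2* fell by 1.10, 1.03 and 0.59. In all, 2 of 9 photoprotection genes were higher and 3 lower. Among 20 genes of light signalling, 3 rose and 6 fell. *HY5*, a bZIP activator of light-induced genes, had values of 4.48, 4.60 and 3.97 in repeat 2 and between 1.18 and 2.48 elsewhere. It rose by 2.53 ± 0.33 (limma adjusted p = 0.00237). Its homologue *HYH* and *RUP2*, a repressor of the UV-B receptor, rose by 1.90 and 1.95. The shade-induced regulators *PAR1* and *HFR1* fell by 5.86 and 2.13, and *FHY1*, which carries phytochrome A into the nucleus, fell by 1.28. Of the 6 lower genes of light signalling, 1 was left without oviposition repeat 2 or EE repeat 2, and 2 were left without control repeat 2, without EE repeat 1 or with total reads as the scale. Of the 3 lower genes of photoprotection, 0 were left without control repeat 2 or oviposition repeat 2, and 1 without EE repeat 2 or with total reads.

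Most clock genes did not pass the test. Of 14 morning genes 4 were lower and 1 was higher in repeat 2, with a median of -0.91, and of 14 day and evening genes 4 were higher and 1 was lower, with a median of 0.48. The shares were 28.6% lower and 7.14% higher for morning genes, and 28.6% higher and 7.14% lower for evening genes. Over all genes 6.94% were lower and 4.29% higher. *ELF4*, a subunit of the evening complex, had log2 values of 7.08, 7.42 and 6.94 in control, oviposition and EE of repeat 2. Repeat 1 had 4.23, 4.97 and 4.55, and repeat 3 had 5.34, 4.75 and 5.01. All repeat 2 libraries lay above the others, and *ELF4* rose by 2.34 ± 0.25 (limma adjusted p = 0.00106), which is 5.05-fold. *LUX*, the DNA-binding subunit of that complex, rose by 1.25 and its paralogue *BOA* by 2.66, and the pseudo-response regulator gene *PRR3* rose by 1.28. *BOA* counted 1092 reads in repeat 2 and 321 in the other 6 libraries. *TOC1*, the repressor of morning genes, had a difference of 0.44 (limma adjusted p = 0.187) although all 3 libraries were above the others. *GI* and *ELF3* had differences of 0.62 and 0.53 and overlapped. *CHE*, a TCP repressor of *CCA1*, fell by 1.67. The difference of *ELF4* passed under every alternative tried, whereas *LUX*, *PRR3*, *BOA* and *CHE* each lost it when control repeat 2 was left out (limma adjusted p = 0.174, 0.167, 0.0687 and 0.0909). *LUX* and *PRR3* also lost it without oviposition repeat 2, EE repeat 1 or EE repeat 2, and *CHE* without oviposition repeat 2 or EE repeat 2.

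Among morning genes *LNK4*, a transcriptional coactivator gene, fell by 1.49 (SE 0.19, limma adjusted p = 0.0023). Its values were 3.33, 2.63 and 2.60 in repeat 2 and between 3.89 and 4.85 elsewhere, with no overlap. The *CCA1* relatives *RVE1*, *RVE7* and *RVE4* fell by 2.29, 1.19 and 0.88. None of these 3 calls held without control repeat 2 (limma adjusted p = 0.166, 0.169 and 0.215), without oviposition repeat 2, EE repeat 1 or EE repeat 2, or with total reads as the scale. With weights from vooma *RVE1* and *RVE7* missed the threshold (limma adjusted p = 0.0639 and 0.0626), and with voom *RVE7* and *RVE4* did (0.0559 and 0.0597). *RVE2*, another relative, rose by 2.80, a call that was lost without control repeat 2 or oviposition repeat 2 (limma adjusted p = 0.0830 and 0.0614). *CCA1* had log2 values of 2.23, 1.57 and 1.52 in control, oviposition and EE of repeat 2. In repeat 1 they were 4.70, 3.29 and 3.24, and in repeat 3 they were 2.51, 3.84 and 2.75. All repeat 2 libraries were below the others, yet its difference of -1.62 missed the threshold (limma adjusted p = 0.0511), and *LHY* overlapped with -0.86. The repeats compared with were themselves spread, since *PRR9*, a day-phased repressor of *CCA1*, had 5.05 in control repeat 1 and 3.05 in EE repeat 3, and was lowest in control repeat 3. Without control repeat 3 and oviposition repeat 1, left out together after seeing the data, 11 morning genes were lower, and without control repeat 3 alone 9 were, with a limma adjusted p for *CCA1* of 0.00335 and 0.0030. Without control repeat 2, oviposition repeat 2, EE repeat 1 or EE repeat 2, or with total reads as the scale, 1 was lower, and 2 were without oviposition repeat 1 or 3 or EE repeat 3. The evening count was 1 without control repeat 2, 2 without oviposition repeat 2, EE repeat 1 or EE repeat 2, and 6 with total reads.

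**Figure D4:**
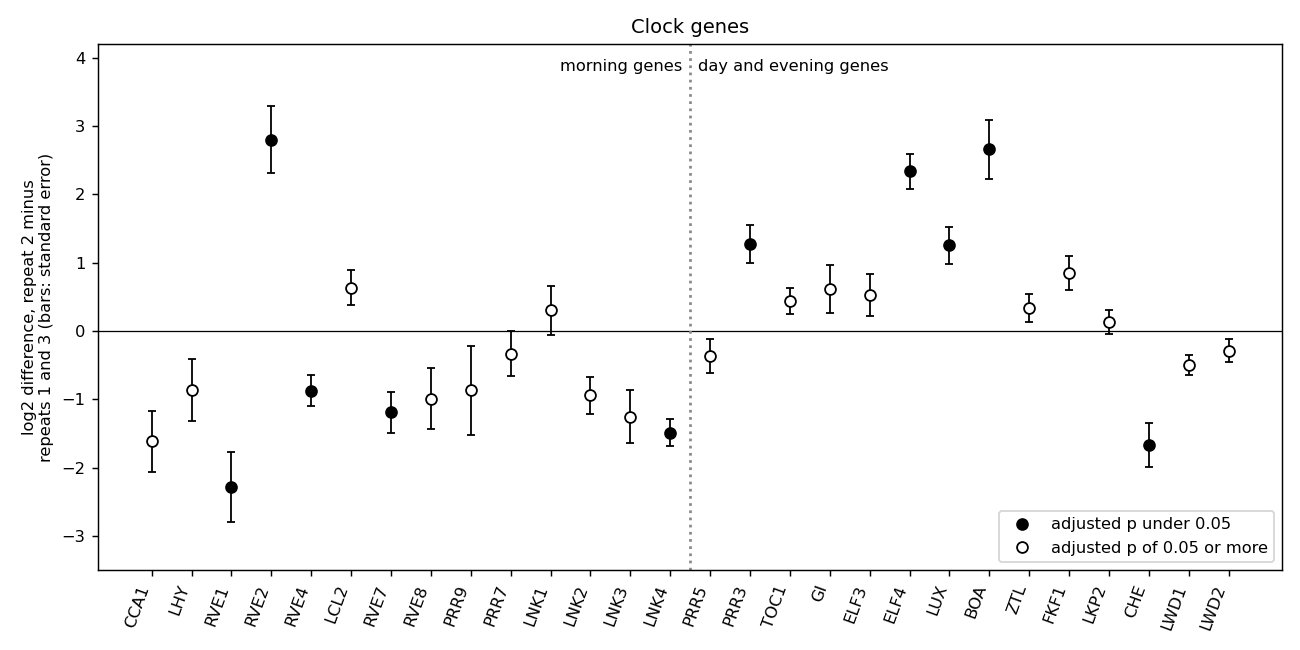
Log2 difference between repeat 2 and repeats 1 and 3 for 28 clock genes, with bars for 1 standard error and filled points for an adjusted p under 0.05. *ELF4*, *BOA*, *LUX* and *PRR3* lie above 0 on the evening side, and *RVE2* is the 1 filled point above 0 on the morning side.

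Outputs of the clock were 4 higher and 0 lower of 16. *CO*, the photoperiod regulator of flowering, had 332 reads over the 3 libraries of repeat 2 and 41 over the other 6. Its difference was 4.11 ± 0.71 (limma adjusted p = 0.00822). *COR27*, a cold-induced and evening-phased regulator, rose by 1.84, and *COL9*, a relative of *CO*, rose by 1.39. The count of higher outputs was 1 without control repeat 2, 2 without oviposition repeat 2 or 3 or any 1 EE library, and 6 with total reads as the scale. The evening element AAAATATCT, the usual site of clock MYB proteins, was found in 2 of the 4 evening genes called higher, beside 2.55% of all promoters and 4.23% of those called higher. It was also in 1 of 4 higher clock outputs, 2 of 6 higher starch genes and 1 of 3 higher iron genes. Among lower genes it was in 2 of 14 of chlorophyll synthesis (14.3%), beside 3.28% of all genes called lower. A related site, AAAAATCT, known from *CCA1* binding to antenna genes, was found in 3 of the 14 lower antenna genes (21.4%), beside 6.83% of all promoters and 7.21% of those called lower. Neither motif contains the other, and both strands were searched. The stretches below are read as above, for the higher genes *LUX* at chr3:17182950-17183069 (plus strand), *BOA* at chr5:24003768-24003887 (plus strand) and *COR27* at chr5:17199824-17199953 (minus strand), and for the lower gene *LHCB1.4* at chr2:14524576-14524695 (plus strand). They show how near the gene start the sites lie. Capitals mark the evening element or its reverse complement AGATATTTT, the G-box CACGTG, and in *LHCB1.4* the site AAAAATCT.
LUX: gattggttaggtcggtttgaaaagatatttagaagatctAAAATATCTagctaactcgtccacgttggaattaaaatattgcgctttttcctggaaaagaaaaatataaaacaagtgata
BOA: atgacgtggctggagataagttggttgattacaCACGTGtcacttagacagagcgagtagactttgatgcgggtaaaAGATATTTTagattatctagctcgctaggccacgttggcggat
COR27: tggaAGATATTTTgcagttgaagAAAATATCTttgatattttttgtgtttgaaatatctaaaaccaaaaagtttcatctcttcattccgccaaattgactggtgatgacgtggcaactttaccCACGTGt
LHCB1.4: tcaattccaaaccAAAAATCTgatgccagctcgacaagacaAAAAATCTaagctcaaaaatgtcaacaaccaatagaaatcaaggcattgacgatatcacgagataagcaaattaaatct
The evening element begins at position -81 from the gene start in *LUX* and at -43 in *BOA*, and *COR27* has copies at -156 and -137.

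Of 16 starch genes 6 rose, 1 fell and 9 did not pass, with a median of 0.98. *BAM3*, the main plastid beta-amylase of starch breakdown, had log2 values of 11.44, 11.49 and 11.09 in control, oviposition and EE of repeat 2. The other libraries lay between 8.75 and 9.40, with no overlap, and the difference was 2.19 ± 0.23 (limma adjusted p = 0.000959). The debranching enzyme gene *ISA3* and the phosphatase gene *SEX4*, both of starch breakdown, rose by 1.36 and 1.34. *APL3*, a subunit of ADP-glucose pyrophosphorylase in starch synthesis, rose by 1.70, and *APL1*, the subunit typical of leaves, fell by 1.08. The list took 1.45%, 1.23% and 1.17% of reads in repeat 2 and 0.312% to 0.669% elsewhere. Of the rises, 3 were left without control repeat 2 and 4 without oviposition repeat 1 or 2 or any 1 EE library.

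Most genes of sugar starvation and darkness were lower. Of 19 measured genes 13 fell (68.4%, beside 6.94% of all genes) and 1 rose (5.26%, beside 4.29%), with a median of -2.78. The summed share of reads of the list overlapped, with 0.168% to 0.192% in repeat 2 and 0.179% to 0.389% elsewhere. *BT2*, a scaffold protein of nutrient and sugar signalling, had log2 values of -3.40, 2.25 and -0.46 in repeat 2 and between 6.08 and 7.85 elsewhere. Control repeat 2 was the lowest, no groups overlapped, and *BT2* fell by 7.50 (SE 0.75, limma adjusted p = 0.000704). *ASN1*, the asparagine synthetase gene that is transcribed in the dark, had -1.72 to 1.22 against 3.89 to 6.34, and fell by 4.94. The beta-galactosidase gene *BGAL4* fell by 4.32, and the dark-inducible *SEN1* and *DIN10* had differences of -4.24 and -4.08. Trehalose phosphate synthase relatives split, as *TPS5* rose by 2.42 and *TPS8*, *TPS9*, *TPS10* and *TPS11* were lower by between 1.96 and 3.89. *DIN2* and *BCAT2* had positive differences of 1.61 and 2.73 that did not pass. The count of lower genes stayed between 12 and 13 when any 1 library was left out, and was 13 with total reads as the scale. *SEN1*, *DIN2*, *DIN10*, *BCAT2* and *TPS8* to *TPS11* were named after their values were seen.

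CC-type glutaredoxins, small redox proteins found in land plants, supplied 3 of the 5 largest falls among all genes. This list of 15 measured genes was written after those falls were seen and serves as a description. In it 9 genes were lower and 3 were higher, with a median of -5.91. The summed share of reads of the list overlapped, with 0.0157% to 0.0219% in repeat 2 and 0.0193% to 0.0256% elsewhere. *GRXS7* had 0 reads in the 3 libraries of repeat 2 and 2316 reads over the 6 others, which is at least 136-fold lower with a floor of 3 reads per library. *GRXS5* had 3 reads against 3785, and *GRXS8* had 2 against 2487. Deposited log2 values of *GRXS5* were -4.97, -6.40 and -4.35 in repeat 2 and between 3.30 and 4.67 elsewhere. *GRXS3*, *GRXS4*, *GRXS5*, *GRXS7* and *GRXS8* lie in a tandem cluster of similar copies on chromosome 4, among which reads may be shared. Genes outside the cluster were low as well, with *GRXS10* on chromosome 3 at -7.49. Others went up, with 835 reads of *GRXC10* in repeat 2 against 54 in the others and differences of 4.90 for *GRXC10* and 3.81 for *GRXC6*. *GRXC13* rose by 2.04. It had 5745, 4601 and 3066 reads in control, oviposition and EE of repeat 2 and 318 to 1510 in the others. The remaining 2 of the largest falls were *AT3G16670*, of a pollen allergen and extensin family, with 1 read in repeat 2 and 3563 in the others, and *AT3G13404*, of unknown function, with 0 and 1042 reads.

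**Figure D5:**
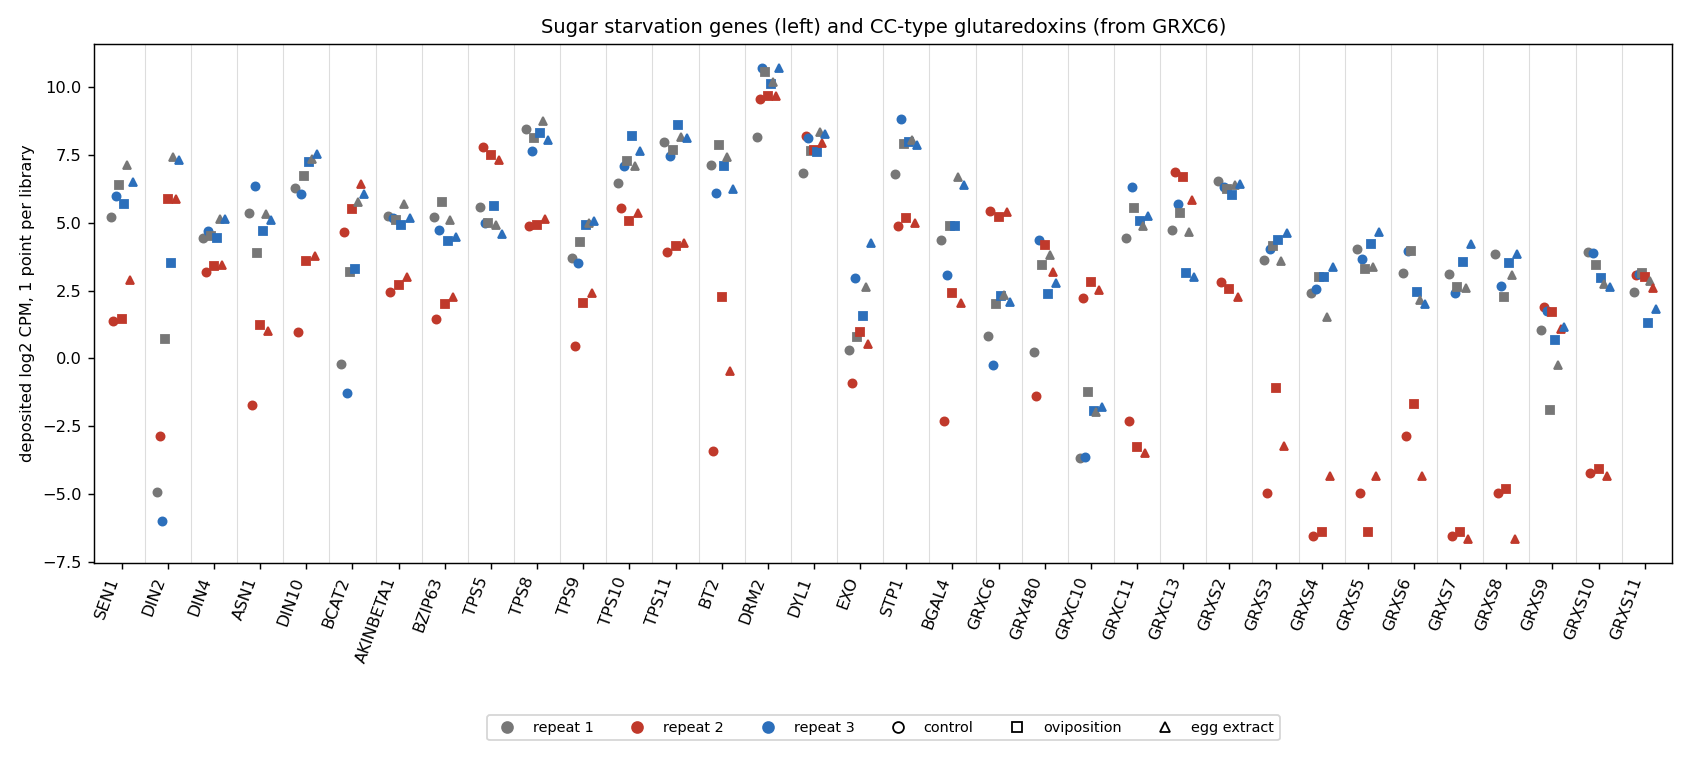
Deposited log2 CPM of 19 genes of sugar starvation and darkness and of 15 CC-type glutaredoxins, with 1 point per library, colour for the repeat and shape for the treatment. From *GRXS3* to *GRXS8* the repeat 2 points (red) lie below -1 and all others above 1.

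Growth lists differed in their share of lower genes. In auxin response 17 of 25 genes fell and 0 rose, with a median of -2.07, and among cytokinin, gibberellin and brassinosteroid genes 8 of 10 fell and 0 rose, with a median of -1.93. *IAA29*, an auxin and shade response gene, had log2 values of 0.97, -0.46 and 0.17 in control, oviposition and EE of repeat 2. All other libraries lay between 3.81 and 5.68, and *IAA29* fell by 4.37 (SE 0.27, limma adjusted p = 0.000103). *SAUR15* and *SAUR16*, of a family that promotes cell expansion, fell by 3.29 and 3.11. The cytokinin response regulator genes *ARR6* and *ARR5* fell by 3.35 and 2.52, and the gibberellin synthesis gene *GA3OX1* by 2.74. Fewer auxin genes were lower without control repeat 2 (6), oviposition repeat 2 (9), EE repeat 1 (11) or EE repeat 2 (8), and 4 hormone genes of the other list were left without oviposition repeat 2 or EE repeat 2.

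In cell wall expansion 7 of 21 genes fell and 1 rose (33.3% and 4.76%, beside 6.94% and 4.29% of all genes). The median of this list was -1.54 between the controls, -1.03 with EE and 0.19 with oviposition, and its share of reads overlapped, with 0.119% to 0.191% in repeat 2 and 0.0677% to 0.170% elsewhere. *EXPA8*, an expansin gene, had values of 0.16, 0.99 and 2.11 in repeat 2 and between 4.15 and 6.25 elsewhere, and fell by 4.07 (SE 0.45, limma adjusted p = 0.00107). Its relative *EXPA11* fell by 2.57, whereas *EXPA5* rose by 1.48. Cell division had 8 of 21 genes lower (38.1%), with a median of -1.28, or -2.13 between the controls, -1.40 with EE and -0.15 with oviposition. The largest falls were those of *PCNA1*, the sliding clamp of replication, by 2.31 and of the helicase subunit genes *MCM3* and *MCM7* by 2.26 and 2.15. This count was 0 without control repeat 2 or EE repeat 2, 3 without EE repeat 3, 4 without EE repeat 1 and 2 with total reads as the scale. Cell wall counts of lower genes were 4 without control repeat 2, EE repeat 1 or EE repeat 2. Among 6 regulators of leaf growth *GRF2* fell by 0.88, and 0 of 21 cytosolic ribosome genes passed, with a smallest adjusted p of 0.0932 for *RPL3A* (limma). All 21 ribosome differences were negative, with a median of -0.58. It was -0.99 between the controls, -0.42 with oviposition and -0.29 with EE. Of 10 genes of flowering and plant age, *SPL9* rose by 1.37 and *SOC1* and *SPL4* fell by 1.17 and 1.15. The flowering list thus had 10.0% higher and 20.0% lower, and leaf growth had 16.7% lower. With 1 or 2 genes each way, these shares cannot be told from those of all genes. The call of *GRF2* and the rise among the flowering genes were both lost without control repeat 2, oviposition repeat 1, oviposition repeat 2 or any 1 EE library.

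In heat stress 4 of 21 genes (19.0%, beside 4.29% of all genes) rose and 0 fell, led by the chaperone genes *HSP70* with 4.94-fold and *HSP90.1* with 2.82-fold, while the median was 0.16. None was left without control repeat 2 or oviposition repeat 2, and 2 were left without EE repeat 2. *CBF3*, a transcription factor of cold acclimation, rose by 2.03 as the only one of 14 cold genes, a call lost without control repeat 2, oviposition repeat 2 or EE repeat 3, and its relatives *CBF1* and *CBF2* had differences of -0.11 and -1.39. The cold list took 2.49%, 2.08% and 1.14% of reads in repeat 2 and 0.687% to 1.70% elsewhere, so the groups overlapped. For drought and abscisic acid, 1 of 19 genes was higher and 2 were lower. The proline synthesis gene *P5CS1* had 5.00, 5.54 and 4.80 in repeat 2 and 7.84 to 10.06 elsewhere, and fell by 3.45 (SE 0.36, limma adjusted p = 0.000856). *HAI2*, a phosphatase gene of abscisic acid signalling, rose by 1.73 and *RD26* fell by 1.73. Among drought genes 0 were higher without any 1 of control repeats 1 to 3, oviposition repeats 1 and 2 and EE repeats 2 and 3, and 4 were without oviposition repeat 3, while 1 was lower without control repeat 2, oviposition repeat 1 or any 1 EE library. Among 16 genes of rapid stress and touch, *TCH4*, a cell wall enzyme gene, was the 1 that fell, by 4.74. Of 6 redox enzyme genes, *CAT2* and *2CPB* (33.3%, beside 6.94% of all genes) fell by 0.81 and 1.11. None was left without control repeat 2, oviposition repeat 2 or EE repeat 1 or with total reads as the scale, and 1 was left without control repeat 1, oviposition repeat 1 or EE repeat 2.

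Nutrient lists held calls in both directions. Of 9 iron genes, the ferritin genes *FER1*, *FER3* and *FER4*, for iron storage, rose by 1.96, 1.30 and 1.07, and *BHLH101*, an activator under iron shortage, fell by 5.17. *FER3* had 5.80, 5.64 and 5.40 in repeat 2 and 3.95 to 4.71 elsewhere, with no overlap. Of 15 nitrogen genes 2 rose and 5 fell, a count that held within 4 to 6 lower genes when any 1 library was left out. The nitrate transporter gene *NRT1.1* had 5.71, 6.26 and 6.68 in repeat 2 and 4.24 to 4.95 elsewhere, a rise of 1.75 ± 0.18 (limma adjusted p = 0.000856). *LBD38* and *LBD39*, nitrate-induced repressors, fell by 4.13 and 5.91, and the asparagine synthetase gene *ASN2* fell by 3.03. *LBD39* had 0 reads in control repeat 2. Its difference was -10.01 between the controls, but -3.97 with oviposition and -3.76 with EE. The high-affinity transporter gene *ATNRT2.5*, seen among the larger rises of all genes and outside the list, had a difference of 5.57. Of 12 phosphate, 11 copper and 11 sulfur genes, 2 in each list passed the test. Among them were the galactolipid synthase gene *MGD3* with a rise of 3.37 and the sulfate reduction gene *APR2* with a fall of 1.17. Phosphate and copper each had 1 gene higher and 1 lower (8.33% and 9.09% each way). Sulfur had 2 lower (18.2%), beside 4.29% of all genes higher and 6.94% lower. None of these calls in the 3 lists was left without control repeat 2. Iron rises numbered 1 without control repeat 2, oviposition repeat 2, EE repeat 1 or EE repeat 2, and 0 iron genes were lower without control repeat 2 or oviposition repeat 2.

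Defence genes, on which the study centred, had few members past the test. In repeat 2, 1 of 21 salicylic acid genes, 1 of 25 jasmonate genes and 2 of 16 genes of pattern-triggered immunity were lower and 0 were higher, shares of 4.76%, 4.00% and 12.5% beside 6.94% of all genes. The medians of the salicylic acid and immunity lists were both -0.28. For jasmonate genes the median was -1.03, with 24 of 25 differences negative. That median was -1.95 between the controls, 0.31 with oviposition and -0.93 with EE. Their median change from control to oviposition was 0.77, 2.70 and -1.25 in repeats 1, 2 and 3. With EE it was 1.07, 1.10 and -1.70. *PR1*, the salicylic acid marker of the study, had log2 values of 1.65 in control, 6.70 in oviposition and 9.39 in EE of repeat 2. It had 1.56, 8.92 and 10.00 in repeat 1 and -0.70, 7.90 and 9.51 in repeat 3. Within each repeat both treatments were above the control, by 5.05 and 7.74 in repeat 2, 7.36 and 8.45 in repeat 1 and 8.60 and 10.22 in repeat 3. The repeat 2 difference of *PR1* was -0.28 (limma adjusted p = 0.813). *SAG13*, a senescence marker, and *ATKTI1*, the trypsin inhibitor gene, had differences of 1.32 and 0.92 (limma adjusted p = 0.221 and 0.541). *FLS2*, the flagellin receptor gene, fell by 1.81, and *PR4* fell by 2.17. Without control repeat 2 the lower genes of the salicylic acid, jasmonate and immunity lists numbered 0, 0 and 1. A limma F test of whether the difference of repeat 2 depended on treatment, added after the data were seen, called 0 of 17605 genes, with 288 at an unadjusted p under 0.05. It had only 1 repeat 2 library per treatment and so little power. Its 0 calls do not show that the difference was equal over treatments.

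Among 16 genes of senescence and chlorophyll breakdown, *NYE1* and *NYE2*, which start chlorophyll breakdown, rose by 1.11 and 2.05, and *SAG21* fell by 1.39. These calls were 12.5% of the list higher and 6.25% lower, beside 4.29% and 6.94% of all genes. Of 18 aliphatic glucosinolate genes, the chain elongation gene *MAM3* and the oxygenase gene *FMOGS-OX3* rose by 0.98 and 0.84, and the indole gene *CYP79B3* was the 1 of 7 that fell, by 1.49. That was 11.1% of the aliphatic list higher and 14.3% of the indole list lower, on 2 genes and 1 gene. No senescence gene was left, higher or lower, without control repeat 2, oviposition repeat 2 or EE repeat 1, and 0 were higher without oviposition repeat 1. No aliphatic gene was left without oviposition repeat 2, EE repeat 2 or EE repeat 3, and 1 was without control repeat 2 or EE repeat 1. The indole call was lost without any 1 library other than control repeat 3 or oviposition repeat 3.

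Genes that mark tissue and RNA quality were set beside these results. None of 14 reference genes passed, with a median of -0.15, or 0.24 with total reads as the scale. Marker lists of guard cells (7 genes), phloem (5), xylem (5) and epidermis and trichomes (6) had at most 1 gene each way past the test. Their medians were 0.07, -0.04, -0.93 and -0.25. All 5 xylem differences were negative, with a median of -2.05 between the controls, 0.14 with oviposition and -1.01 with EE. Their summed shares overlapped between repeat 2 and the rest, from 0.0266% to 0.0556% against 0.0341% to 0.215% for guard cells, from 0.0802% to 0.0874% against 0.0585% to 0.0980% for phloem, from 0.00119% to 0.00280% against 0.00142% to 0.00551% for xylem, and from 0.0517% to 0.135% against 0.0567% to 0.159% for epidermis and trichomes. No flower marker was among the genes tested. The 67 plastid-encoded genes took 0.690% of reads in control, 0.132% in oviposition and 0.110% in EE of repeat 2 and between 0.0593% and 0.237% in the libraries of repeats 1 and 3, so that control repeat 2 alone lay outside that range, and 1 of the genes fell. The 14 mitochondrion-encoded genes took 0.141%, 0.0445% and 0.0340% in repeat 2 and between 0.00316% and 0.0667% in the others. None of them passed, and all 14 differences were positive, with a median of 0.30. The part of these shares in the differences above was not tested.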

How the data were processed

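Libraries from 9 leaf samples were made with a stranded mRNA kit and sequenced on an Illumina HiSeq instrument. Per the labels, the authors' processing notes name cutadapt 1.5, HTSeq, edgeR 3.4.0, limma 3.2 and TAIR10, and the study's methods name STAR, normalization by trimmed mean of M-values and log2 CPM. The deposited log2 values cover 17605 genes, include a scaling to a common median of 4.19, and stood for whole reads plus 0.5 within 0.01 reads in 100% of 158445 values. The authors also deposited fold changes and p-values for each treatment over control, which were not used.

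The log2 values were fitted with limma 3.58.1 in R 4.3.3, with 1 term for repeat 2 and treatment as covariate, moderated variances with a mean-variance trend and Benjamini-Hochberg adjustment over all genes, without a further filter or pseudocount. The code was tested on simulated data. Gene lists, with 618 of 682 entries measured, were described by counts and medians without a test. Members, lists, motifs and rules were chosen with earlier results of these data known. Named genes were the study's markers, clock genes, up to 3 genes per list and direction with the largest differences past the threshold, or otherwise the gene with the smallest adjusted p, and the 5 largest rises and falls. Promoters came from TAIR10.1, in which the RefSeq positions of all 17512 matched genes overlapped the deposited ones. Alternatives covered variance, weights, normalization, filters, thresholds, left-out libraries and treatments and, chosen after seeing the data, total reads, an interaction with treatment and a pair of libraries left out together. Figures were drawn with matplotlib.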

Additional observations from a re-analysis of the deposited data

Results flagged for a closer look

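Among the 6 libraries of repeats 1 and 3, 4 of 45 summed gene lists had 1 library set apart from the other 5 by Dixon's criterion. For 6 values drawn from 1 normal population, chance sets apart about 1 in 20. Here the 6 libraries span 3 treatments and all lists share them, so that rate need not hold. Control repeat 1 had 0.0242% of its reads in cell division genes, with 0.0135% in the next library. It also had 0.215% in guard cell markers, with 0.0928% in the next. Oviposition repeat 3 had 0.516% in drought and abscisic acid genes, with 0.194% in the next, and 0.159% in epidermis and trichome markers, with 0.0694% in the next. These values belong to the libraries that repeat 2 was compared with, and their part in the differences was not tested.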

How the results depend on the processing

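Genes called in repeat 2 numbered 1978 (756 higher, 1222 lower). An adjusted p under 0.01 left 798 (253 and 545). The count was 979 (319 and 660) without the 3 control libraries, 831 (232 and 599) without the 3 oviposition libraries and 461 (122 and 339) without the 3 EE libraries, which leaves fewer samples. With total reads as the scale, 1637 were higher and 707 lower, and without control repeat 3 and oviposition repeat 1 together 3160 were called, 1418 higher, and the cause was not tested. With 1 library left out the count ranged from 643 to 2186 (184 to 870 higher, 459 to 1316 lower), and it was 643 without control repeat 2, 877 without oviposition repeat 2, 895 without EE repeat 2 and 1184 without EE repeat 1. Against repeat 1 the range was 349 to 2707 (80 to 1115 higher, 243 to 1592 lower), with 2707 without control repeat 3 and 349 without EE repeat 1, and against repeat 3 it was 353 to 1313 (84 to 476 higher, 269 to 837 lower), with 353 without control repeat 2. Between repeats 3 and 1 it stayed at 0, while genes at an unadjusted p under 0.05 ranged from 372 to 2503, with 2503 without control repeat 3 and 372 without EE repeat 3. With the replicate block, which gives each repeat its own mean, 1738 genes were called (642 higher, 1096 lower), of which 1645 were among the 1978. With this block *RVE4* and *RVE7* had a limma adjusted p of 0.0680 and 0.0548. No source states that equal numbers pair libraries across treatments. Deviations from treatment means correlated across genes at 0.674 to 0.775 between the repeat 2 libraries, but at 0.0226 between control and oviposition of repeat 1 and at -0.157 in repeat 3, against 0.608 for control repeat 3 with oviposition repeat 1 and 0.435 for control repeat 1 with oviposition repeat 3, so not every library correlated best with its own number. Of 116 named genes past the threshold, 103 kept it with the block, 62 to 109 with 1 library left out and 54 to 116 under the other settings, and none changed direction. At 37348236 to 47057692 reads per library, genes with 0 reads have only a lower bound on their fold change.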
